A study of Homo sapiens with 2 samples.

Results

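The genes described here are those of the authors' deposited table whose symbols carry a name stem of a G protein-coupled receptor, such as GPR, ADGR, HTR, ADR, LPAR, GRM or LGR. The stems found 41 of the 2005 genes in the table. RNA came from HES2, a human embryonic stem cell line in long use, infected with a lentivirus that carried either a short hairpin RNA against TFCP2L1 (Tfcp2l1 shRNA, here the knockdown) or a scrambled control (scramble). Both cultures were grown for 3 passages in basal medium with 10% KSR, FGF2 at 10 ng/ml and Activin A at 10 ng/ml. The labels do not say whether the infected cells came from 1 clone or were a mixed pool. Each group had a single library (n = 1), so differences below have no replicate check and no p-value for the conditions was computed.

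G protein-coupled receptors are serpentine proteins of the cell surface that bind hormones, lipids, amines, peptides or neighbouring cells and pass the signal to G proteins inside the cell. Receptors that couple to Gs raise cyclic AMP, those that couple to Gi lower it, and those that couple to Gq release calcium through phospholipase C. APLNR, which acts in the early embryo, and LGR5 and LGR6, which mark stem cells of adult tissues, belong to this family.

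Levels are the authors' values, read as FPKM (fragments scaled by gene length and by library size), and ratios are knockdown over scramble. Whole reads per gene were inferred from the levels and the deposited p-values, as described with the processing, for 38 of the 41 genes. The inferred library sizes, to 3 digits, were 22700000 reads in the knockdown and 23400000 in the scramble library. Each interval is an exact (Clopper-Pearson) 95% interval of the read ratio that covers counting error only. The target gene, TFCP2L1 (gene ID 29842), was at 0.33 FPKM in the knockdown and 3.19 FPKM in the scramble library, 9.71-fold lower (interval 7.58 to 12.6). Of 7 endoderm markers all 7 were higher in the knockdown, with a summed level of 1030 against 8.59 FPKM. CER1 gave most of both sums (799 FPKM in the knockdown, 6.11 FPKM in scramble). SOX17 was at the lowest listed value of 0.01 FPKM in the scramble library. Of 12 pluripotency markers 3 were listed (SOX2, PODXL and TERT), and these summed to 168 FPKM in the knockdown and 411 FPKM in the scramble library. The neural list had no row, while the mesenchyme list had COL1A1 (24.4 FPKM in the knockdown, 110 FPKM in scramble) and the endothelium and blood list had TIE1 (1.04 FPKM in the knockdown, 5.39 FPKM in scramble). The part of these markers in the receptor results was not tested. In a bulk sample, fewer cells of a type and less RNA per cell cannot be told apart.

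The receptor genes differed in both directions. In the knockdown 23 of the 41 were higher (56.1%, against 54.1% of all listed genes) and 18 were lower (43.9%, against 45.9%), shares close to those of the whole table. The counts by family and by partner list below are small and stand against these same shares. Every row had to pass the authors' limits, and by the deposited p-values 5.86% of an inferred 18489 genes tested passed them as higher and 4.98% as lower. Receptors without a row were not analysed here. The 41 genes had low levels: the higher of the 2 levels had a median of 2.08 FPKM, against 3.30 FPKM over all listed genes, and 4 receptor genes (9.76%) reached 10 FPKM against 22.3% of the table. These 4 were P2RY1, GRM4 and S1PR3, all higher in the knockdown, and LPAR3, which was lower.

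A total of 27 genes reached 1 FPKM in at least 1 library (65.9%, against 79.2% of listed genes), and 14 did not. On the log2 scale with 0.1 FPKM added to each level, 19 genes at 1 FPKM or more were at least 2-fold higher (46.3%, against 40.8% of listed genes) and 7 at least 2-fold lower (17.1%, against 35.4%). These shares, and those at 4-fold below, are over all 41 and all 2005 genes, also those below 1 FPKM. This split rests on the level as well as the direction, since 10 of the 14 genes below 1 FPKM were lower, against 188 of 418 listed genes below 1 FPKM. The counts of receptor genes also moved with the scaling of the libraries. With each library divided by the upper quartile of listed levels, they were 10 higher and 8 lower. The scaling shifts the log2 ratio of levels of every gene by -0.34 before the 0.1 FPKM is added, and that of low genes by less after it. The counts of all listed genes therefore move too, and whether the split against them changes was not examined. The quartile was taken over genes that all passed the authors' limits, so it is not independent of the differences counted. Without that scaling, 7 genes at 1 FPKM or more were at least 4-fold higher (17.1%, against 12.0%) and 0 at least 4-fold lower (against 5.34%) on the scale with 0.1 FPKM added. The count of 4-fold lower genes was 4 with the upper quartile scaling and 3 without the limit of 1 FPKM. The shares of all listed genes under that scaling, or without that limit, are not given. The median log2 ratio was 1.15 over the 27 genes and 1.02 over the listed genes at that level. No listed gene has an authors' log2 ratio of a size below 1. A median over both directions therefore follows mostly the share of higher genes and is no typical change. Among the 23 higher genes the median was 1.5, as over all higher listed genes, and among the 18 lower genes it was -1.54, against -1.37. A counting interval lay wholly above 2 for 16 of the 38 genes with inferred reads (42.1%, against 36.8%) and wholly below 0.5 for 11 (28.9%, against 27.0%).

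**Figure D1:**
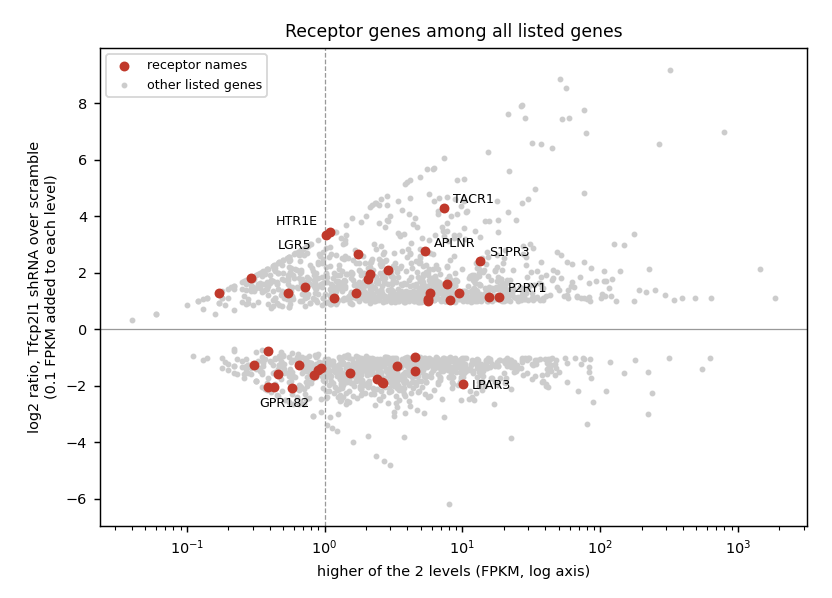
The log2 ratio of knockdown over scramble, with 0.1 FPKM added to each level (vertical axis), is plotted against the higher of the 2 levels in FPKM (log axis) for the 41 receptor-named genes (red) and the other listed genes (grey). The dashed line marks 1 FPKM, the receptor genes lie on both sides of 0, and TACR1 has the highest ratio among them on this scale at 4.29.

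Receptors for peptides included TACR1, which had the highest log2 ratio of the 41 genes with 0.1 FPKM added to each level (4.29). By the log2 ratio in the authors' deposited table HTR1E (6.78), LGR5 (6.69) and ADGRG7 (4.86) stood above TACR1 (4.71). TACR1, the receptor of substance P, was at 7.32 FPKM in the knockdown and 0.28 FPKM in the scramble library, a ratio of levels of 26.1. Its levels and p-value gave no pair of whole reads, so it has no interval. APLNR, the receptor of apelin and of the embryonic peptide ELABELA, which guides mesendoderm cells in zebrafish, was at 5.32 FPKM in the knockdown and 0.69 FPKM in scramble. Its reads numbered 464 in the knockdown and 62 in the scramble library, a ratio of 7.73 (interval 5.92 to 10.2). BDKRB2, the constitutive bradykinin receptor, was at 1.75 FPKM in the knockdown and 0.19 FPKM in scramble on 165 knockdown and 18 scramble reads, a ratio of 9.46 (interval 5.81 to 16.4). All 3 were near or below 0.7 FPKM in the scramble library and above 1.7 FPKM in the knockdown.

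The other peptide receptors were at or below 2.41 FPKM in both libraries. VIPR2, a receptor of vasoactive intestinal peptide, was at 0.54 FPKM in the knockdown and 0.16 FPKM in the scramble library, a ratio of levels of 3.38. Its inferred reads gave a higher ratio of 3.89 (interval 2.08 to 7.82). VIPR2 is uncertain, because 53.4% of the 31-base words of its longest transcript also occur in another gene and an antisense gene overlaps its exons. PROKR2, the prokineticin receptor mutated in Kallmann syndrome, was at 0.65 FPKM in the knockdown and 2.41 FPKM in scramble, 3.72-fold lower in the knockdown (interval 2.51 to 5.68). NMUR1, a neuromedin U receptor, was at 0.21 FPKM in the knockdown and 0.84 FPKM in scramble, 4.07-fold lower (interval 2.29 to 7.69). Of the 6 listed peptide receptors, of 51 names on that list, 4 were higher and 2 lower.

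**Figure D2:**
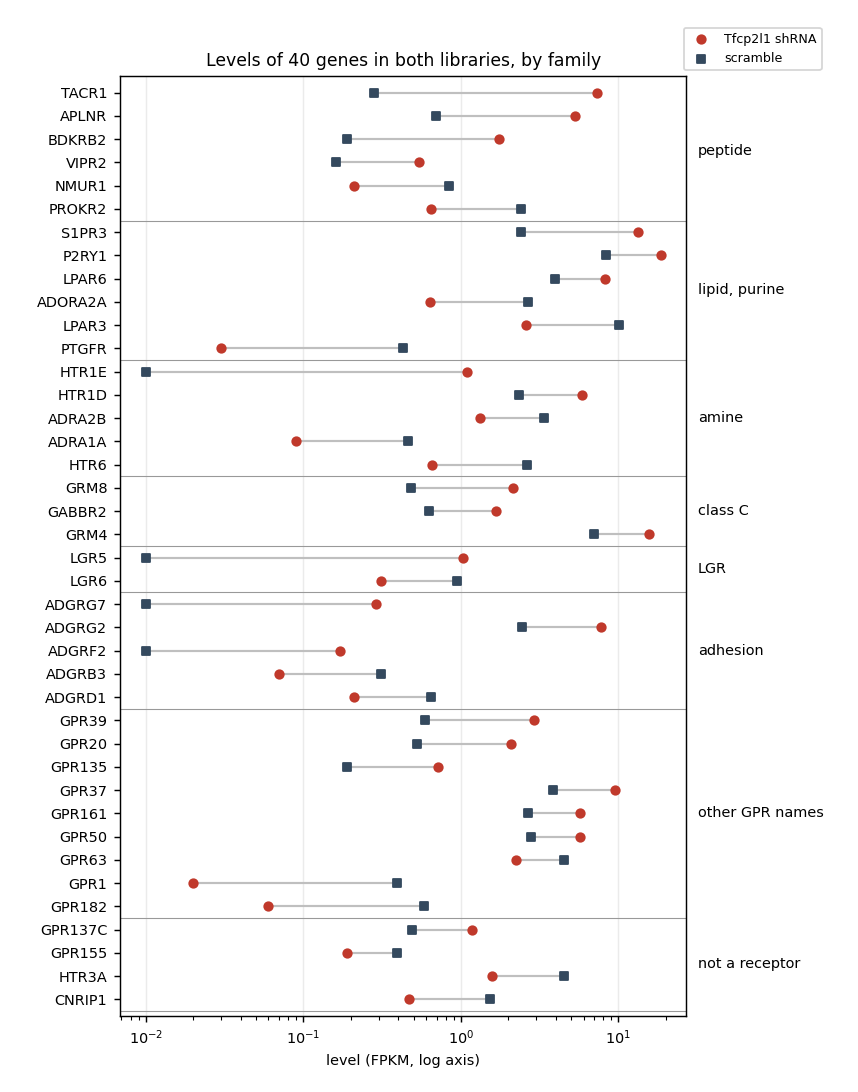
Levels in FPKM (log axis) of 40 of the 41 genes are shown in the knockdown (red circles) and scramble (dark squares) libraries, 1 library each, grouped by family and joined by grey lines. All 3 class C genes have the circle to the right of the square, while each other family with more than 1 gene holds both orders.

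Receptors for lipids and purines split evenly, with 3 higher and 3 lower. They included the gene with the highest level of the set in each library, P2RY1 in the knockdown and LPAR3 in scramble. P2RY1, a Gq-coupled receptor of ADP best known from platelets, was at 18.5 FPKM in the knockdown and 8.29 FPKM in the scramble library, a ratio of 2.24 (interval 2.09 to 2.39) on 2834 knockdown and 1309 scramble reads. S1PR3, a receptor of sphingosine 1-phosphate, was at 13.4 FPKM in the knockdown and 2.42 FPKM in scramble, a ratio of 5.53 (interval 4.82 to 6.36) on 1318 knockdown and 246 scramble reads. The 2 lysophosphatidic acid receptors in the table had opposite directions. LPAR6 was at 8.20 FPKM in the knockdown and 3.95 FPKM in the scramble library, a ratio of 2.07 (interval 1.77 to 2.44). LPAR3, needed for timely embryo implantation in mice, was at 2.58 FPKM in the knockdown and 10.1 FPKM in scramble, 3.90-fold lower (interval 3.12 to 4.92) on 98 knockdown and 395 scramble reads. LPAR3 thus had the higher level of the pair in the scramble library and LPAR6 in the knockdown.

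ADORA2A, the Gs-coupled adenosine receptor, was at 0.64 FPKM in the knockdown and 2.65 FPKM in the scramble library, 3.98-fold lower (interval 2.75 to 5.90). It is uncertain, since 89.8% of its 31-base words also occur in another gene, most often the readthrough transcript SPECC1L-ADORA2A. PTGFR, the receptor of prostaglandin F2-alpha, was at 0.03 FPKM in the knockdown and 0.43 FPKM in scramble, on 4 knockdown and 53 scramble reads, 12.8-fold lower with a wide interval of 4.73 to 48.8.

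Among amine receptors the 2 serotonin receptors coupled to Gi were higher while HTR6, ADRA2B and ADRA1A were lower. HTR1E was at 1.10 FPKM in the knockdown on 51 reads and at the lowest listed value of 0.01 FPKM in the scramble library, where 0 reads were inferred. It was at least 17.6-fold higher against a floor of 3 scramble reads, a fold that leaves out counting error in the knockdown (lower interval limit 13.8). HTR1D, a target of the triptan drugs, was at 5.87 FPKM in the knockdown and 2.32 FPKM in scramble, a ratio of 2.55 (interval 2.12 to 3.08). HTR6, a serotonin receptor coupled to Gs, was at 0.66 FPKM in the knockdown and 2.63 FPKM in scramble, 3.97-fold lower (interval 2.90 to 5.52).

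ADRA2B and ADRA1A encode alpha-adrenergic receptors, which bind adrenaline and noradrenaline. ADRA2B was at 1.33 FPKM in the knockdown and 3.38 FPKM in the scramble library, 2.54-fold lower (interval 2.01 to 3.23). ADRA1A was at 0.09 FPKM in the knockdown and 0.46 FPKM in scramble, a level 5.11-fold lower, and its levels and p-value gave no pair of whole reads. Of this pair ADRA2B reached 1 FPKM and ADRA1A did not.

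Class C receptors, which bind amino acid transmitters through a large outer domain, had 3 listed genes of 18 names, all higher. GRM4 and GRM8 encode metabotropic glutamate receptors of the same Gi-coupled group. GRM4 was at 15.7 FPKM in the knockdown and 7.02 FPKM in the scramble library, a ratio of 2.24 (interval 2.10 to 2.40). GRM8 was at 2.14 FPKM in the knockdown and 0.48 FPKM in scramble, a ratio of levels of 4.46, with no pair of whole reads. GABBR2, the subunit of the GABA-B receptor that couples to the G protein, was at 1.68 FPKM in the knockdown and 0.63 FPKM in scramble, a ratio of 2.67 (interval 2.07 to 3.47).

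The 2 listed R-spondin receptors had opposite directions. LGR5, a marker of intestinal stem cells and a target of WNT signalling, was at 1.03 FPKM in the knockdown and 0.01 FPKM in the scramble library. Its reads numbered 108 in the knockdown and 1 in the scramble library, a ratio of 112 with an interval of 19.6 to 4440. LGR6, its relative in skin stem cells, was at 0.31 FPKM in the knockdown and 0.95 FPKM in scramble, 3.12-fold lower on 23 knockdown and 74 scramble reads (interval 1.93 to 5.22). Neither gene exceeded 1.03 FPKM in either library.

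Of 50 names of adhesion receptors, which carry long extracellular domains and bind neighbouring cells or matrix, 5 were listed. ADGRG2, known from the epididymis, was the one above 1 FPKM, at 7.74 FPKM in the knockdown and 2.45 FPKM in the scramble library, a ratio of 3.15 (interval 2.75 to 3.62). ADGRG7 (0.29 FPKM) and ADGRF2 (0.17 FPKM) had 21 reads each in the knockdown and 0 inferred reads in the scramble library. Each was 7.23-fold higher against the floor of 3 reads, which is likewise no lower bound (lower interval limit 5.38). The RefSeq table in use here lists ADGRF2 as a transcribed pseudogene. ADGRB3, which binds C1q-like proteins at synapses, was at 0.07 FPKM in the knockdown and 0.31 FPKM in scramble, 4.30-fold lower (interval 2.06 to 10.1). ADGRD1 was at 0.21 FPKM in the knockdown and 0.65 FPKM in scramble, 3.14-fold lower (interval 1.98 to 5.13).

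The 9 remaining receptors with GPR names are orphans or were matched to a ligand late, and 6 were higher. GPR37, known as a substrate of the ubiquitin ligase parkin, was at 9.51 FPKM in the knockdown and 3.83 FPKM in the scramble library, a ratio of 2.48 (interval 2.18 to 2.83). GPR161, a receptor of the primary cilium that restrains Hedgehog signalling, was at 5.68 FPKM in the knockdown and 2.65 FPKM in scramble, a ratio of 2.15 (interval 1.94 to 2.40). GPR50, a relative of the melatonin receptors, had the same knockdown level of 5.68 FPKM and was at 2.77 FPKM in the scramble library, a ratio of 2.06 (interval 1.66 to 2.57). These ratios lay close together, and the intervals of GPR161 and GPR50 reach below 2.

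GPR39, a receptor that senses zinc, was at 2.90 FPKM in the knockdown and 0.59 FPKM in the scramble library, a ratio of 5.08 (interval 3.55 to 7.44). It is uncertain, because 41.8% of its 31-base words occur in another gene, most often the antisense neighbour LYPD1. GPR20 was at 2.08 FPKM in the knockdown and 0.53 FPKM in scramble, a ratio of 4.01 (interval 2.37 to 7.16), and GPR135 at 0.72 FPKM in the knockdown and 0.19 FPKM in scramble, a ratio of 3.87 (interval 1.73 to 9.77). GPR63 was at 2.25 FPKM in the knockdown and 4.50 FPKM in scramble, 2.0-fold lower (interval 1.74 to 2.30), which is the edge of the authors' fold limit. The other lower genes had few reads. GPR1, a chemerin receptor, was at 0.02 FPKM in the knockdown and 0.39 FPKM in scramble on 1 knockdown and 19 scramble reads, 18.4-fold lower with an interval of 2.93 to 765. GPR182, an endothelial scavenger of chemokines, was at 0.06 FPKM in the knockdown and 0.58 FPKM in scramble on 2 knockdown and 21 scramble reads, 10.2-fold lower (interval 2.49 to 89.5).

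**Figure D3:**
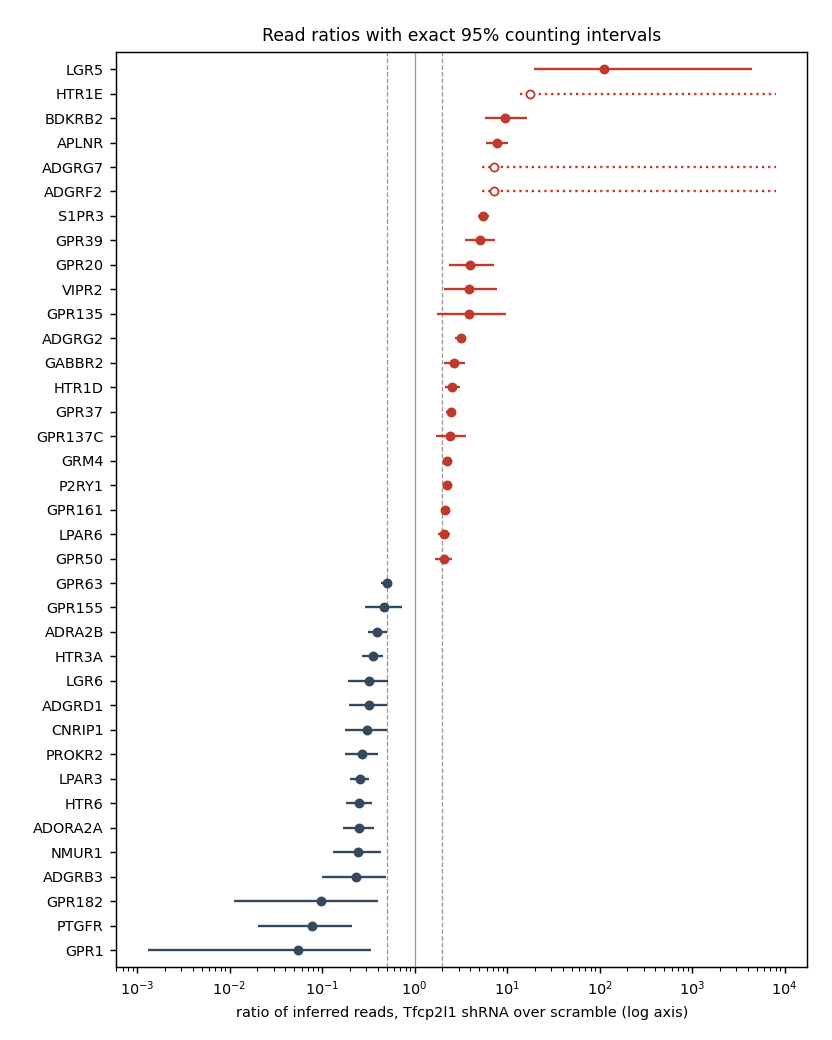
Ratios of inferred reads, knockdown over scramble (log axis), are shown for 37 of the 38 genes with inferred reads, with exact 95% intervals for counting error. Red marks genes higher and dark blue genes lower in the knockdown, dashed lines mark 0.5 and 2, and open circles with dotted lines mark HTR1E, ADGRF2 and ADGRG7, placed against a floor of 3 scramble reads with no upper limit. Intervals are narrow for well-read genes such as GRM4 and wide for GPR1 and LGR5.

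The name stems also took in 4 genes that are not classical G protein-coupled receptors. HTR3A, a serotonin-gated ion channel, was at 1.58 FPKM in the knockdown and 4.51 FPKM in the scramble library, 2.84-fold lower (interval 2.19 to 3.73). CNRIP1, a protein that binds the cannabinoid receptor, was at 0.47 FPKM in the knockdown and 1.54 FPKM in scramble, 3.27-fold lower (interval 1.99 to 5.61). The membrane protein gene GPR155 was at 0.19 FPKM in the knockdown and 0.39 FPKM in scramble, 2.13-fold lower (interval 1.36 to 3.40), and GPR137C was at 1.18 FPKM in the knockdown and 0.49 FPKM in scramble, a ratio of 2.44 (interval 1.70 to 3.56). Without these 4 the set had 37 genes with receptor names, 22 higher (59.5%) and 15 lower. The higher ones still include ADGRF2, listed as a transcribed pseudogene.

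The genes were then grouped by the main G protein assigned to each receptor from textbook knowledge, a grouping chosen after the values were seen and therefore given as a description. A further 13 genes with receptor names were left without a class, 8 of them higher, and 3 were set to several classes. The counts below leave these genes out and could change with a fuller assignment. Of 7 receptors that couple mainly to Gi, 6 were higher, against 54.1% of all listed genes: HTR1E, HTR1D, APLNR, GRM4, GRM8 and GABBR2. Their summed level, with the lower ADRA2B, was 33.2 FPKM in the knockdown and 14.5 FPKM in the scramble library. A large part of both sums came from GRM4 (15.7 FPKM in the knockdown, 7.02 FPKM in scramble). Among receptors that couple to Gs, VIPR2 was higher and ADORA2A and HTR6 were lower. The 8 Gq-coupled receptors split evenly, TACR1, BDKRB2, GPR39 and P2RY1 being higher and PTGFR, ADRA1A, NMUR1 and PROKR2 lower. Their sum was 31.5 FPKM in the knockdown and 13.5 FPKM in the scramble library, most of it from P2RY1. These sums hold listed receptors only and are no measure of signalling.

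Promoter sequence from RefSeq (GRCh38.p14, 250 bases before to 50 after a transcript start) was found for 26 of the 41 genes. The windows of 4 genes are printed, those of TACR1 and LPAR3 because these genes had the highest and the lowest ratio among genes with a window and at 5 FPKM or more, and those of BDKRB2 and LGR6 because they hold the letters of a TFCP2L1 repeat, a choice made after the matches were seen. Capitals mark the matches to any of 6 motifs searched on both strands. These were CCAG repeated after a gap of 6 bases (the repeat bound by TFCP2L1), TCACACC of T-box factors, TGTTTAC of forkhead factors, CTTTGAT of TCF and LEF factors, AGATAA of the zinc finger factors GATA1 to GATA6, and the promoter element TATAAA, none of which is contained in another.
TACR1, chr2:75199471-75199770, minus strand: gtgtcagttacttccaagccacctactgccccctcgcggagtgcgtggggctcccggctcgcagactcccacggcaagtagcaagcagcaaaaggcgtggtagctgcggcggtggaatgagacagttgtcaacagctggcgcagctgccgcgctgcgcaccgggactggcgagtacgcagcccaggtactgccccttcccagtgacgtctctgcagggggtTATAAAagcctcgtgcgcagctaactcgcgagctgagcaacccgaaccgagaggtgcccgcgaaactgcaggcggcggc
LPAR3, chr1:84893157-84893456, minus strand: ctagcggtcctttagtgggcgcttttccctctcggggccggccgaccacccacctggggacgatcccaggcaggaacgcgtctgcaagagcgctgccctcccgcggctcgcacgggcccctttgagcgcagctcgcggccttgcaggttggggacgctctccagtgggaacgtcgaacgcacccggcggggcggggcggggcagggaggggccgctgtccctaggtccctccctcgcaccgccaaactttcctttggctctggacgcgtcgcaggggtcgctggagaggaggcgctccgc
BDKRB2, chr14:96204589-96204888, plus strand: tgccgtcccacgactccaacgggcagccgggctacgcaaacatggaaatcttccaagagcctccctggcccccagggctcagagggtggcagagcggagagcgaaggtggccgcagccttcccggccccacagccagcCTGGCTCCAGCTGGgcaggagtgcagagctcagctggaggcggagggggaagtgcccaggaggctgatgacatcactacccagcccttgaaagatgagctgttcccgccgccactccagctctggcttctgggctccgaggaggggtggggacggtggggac
LGR6, chr1:202203462-202203761, plus strand: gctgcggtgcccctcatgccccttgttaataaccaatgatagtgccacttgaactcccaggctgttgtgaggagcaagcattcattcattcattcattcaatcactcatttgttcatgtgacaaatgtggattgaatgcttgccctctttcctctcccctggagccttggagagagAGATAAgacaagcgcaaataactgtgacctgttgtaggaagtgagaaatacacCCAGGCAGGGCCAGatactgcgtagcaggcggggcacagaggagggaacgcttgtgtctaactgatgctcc

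The TACR1 window held TATAAA starting 29 bases before the transcript start, and the LPAR3 window held none of the 6 motifs. The repeat began 112 bases before the start of BDKRB2, on the reverse strand of the window, and 21 bases before one of the 3 LGR6 starts in the table, where AGATAA lay 74 bases before the start. That LGR6 window is not the first listed for the gene and so is outside the counts that follow. BDKRB2 was higher and LGR6 lower in the knockdown. Over the first listed window of each gene, the repeat was in 1 of 17 higher and 0 of 9 lower receptor genes, against 4.14% of 27305 genes and 5.15% of 1378 listed genes with a window. The T-box, forkhead and TCF/LEF letters were each in 1 of the 17 higher and 0 of the 9 lower genes. They were in 3.43%, 3.41% and 2.64% of all genes and in 2.69%, 3.12% and 1.89% of listed genes. AGATAA was in 2 of 17 and 2 of 9 (10.5% of all and 6.89% of listed genes). TATAAA was in 2 of 17 and 0 of 9 (12.0% of all and 10.3% of listed genes). A match is a stretch of letters and not a binding site, and these windows leave out distant enhancers.

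Partners of receptor signalling were read from lists of names. None of 33 G protein subunit genes had a row. Of 33 effector genes 5 were listed, all lower in the knockdown, where 4.98% of all genes tested were listed as lower and 45.9% of listed genes were lower. ITPR1, a calcium channel of the endoplasmic reticulum, was at 0.28 FPKM in the knockdown and 0.96 FPKM in scramble, 3.42-fold lower (interval 2.58 to 4.59). PDE4B and PDE4A break down cyclic AMP. PDE4B was at 0.81 FPKM in the knockdown and 2.17 FPKM in scramble, and PDE4A at 2.48 FPKM in the knockdown and 5.78 FPKM in scramble. PLCB2, a phospholipase C driven by Gq, was at 2.54 FPKM in the knockdown and 5.68 FPKM in scramble. PRKAR2B, a regulatory subunit of protein kinase A, was at 4.12 FPKM in the knockdown and 8.77 FPKM in scramble. Of 20 RGS genes, which switch G proteins off, 5 were listed, 3 higher and 2 lower. RGS10 was at 5.69 FPKM in the knockdown and 15.0 FPKM in the scramble library, 2.62-fold lower (interval 2.10 to 3.30). ARRB1, a beta-arrestin that ends receptor signals, was at 37.5 FPKM in the knockdown and 12.2 FPKM in scramble, a ratio of levels of 3.08, and ARRDC4, an arrestin-domain protein, was at 3.58 FPKM in the knockdown and 14.5 FPKM in scramble, 4.05-fold lower (interval 3.59 to 4.59).

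Of 64 genes for ligands and the enzymes that make them, 14 were listed, 8 higher and 6 lower. SST, the somatostatin gene, was at 9.20 FPKM in the knockdown and 0.14 FPKM in the scramble library, a ratio of 65.0 on 126 knockdown and 2 scramble reads (interval 17.6 to 543), while no somatostatin receptor had a row. FLRT3, a surface ligand of latrophilin receptors, was at 7.73 FPKM in the knockdown and 0.20 FPKM in scramble, a ratio of 40.5 (interval 25.4 to 68.7), and FLRT2 at 2.56 FPKM in the knockdown and 0.59 FPKM in scramble, and no latrophilin had a row. PROK2, a ligand of PROKR2, was at 0.35 FPKM in the knockdown and 1.84 FPKM in scramble, 5.25-fold lower (interval 2.81 to 10.7), so ligand and receptor were both lower. PTHLH (0.56 FPKM in the knockdown, 0.02 FPKM in scramble, 1 scramble read) and POMC (5.66 FPKM in the knockdown, 1.41 FPKM in scramble) were higher, and EDN1 (0.09 FPKM in the knockdown, 0.65 FPKM in scramble) was lower.

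Ligand and receptor had opposite directions for the apelin receptor. APELA, the gene of ELABELA, was chosen after its value was seen. It was at 13.9 FPKM in the knockdown and 41.4 FPKM in the scramble library, 2.99-fold lower (interval 2.76 to 3.24) on 804 knockdown and 2482 scramble reads, while APLNR was 7.73-fold higher. The level of APELA stayed above that of APLNR in both libraries. SPHK2, a kinase that makes sphingosine 1-phosphate, was chosen in the same way and was at 16.6 FPKM in the knockdown and 7.36 FPKM in scramble, a ratio of 2.20 (interval 1.98 to 2.44), in the direction of S1PR3. PTGS1, an enzyme of prostaglandin synthesis chosen likewise, was at 0.33 FPKM in the knockdown and 1.40 FPKM in scramble, 4.24-fold lower (interval 2.95 to 6.24), in the direction of PTGFR.

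**Figure D4:**
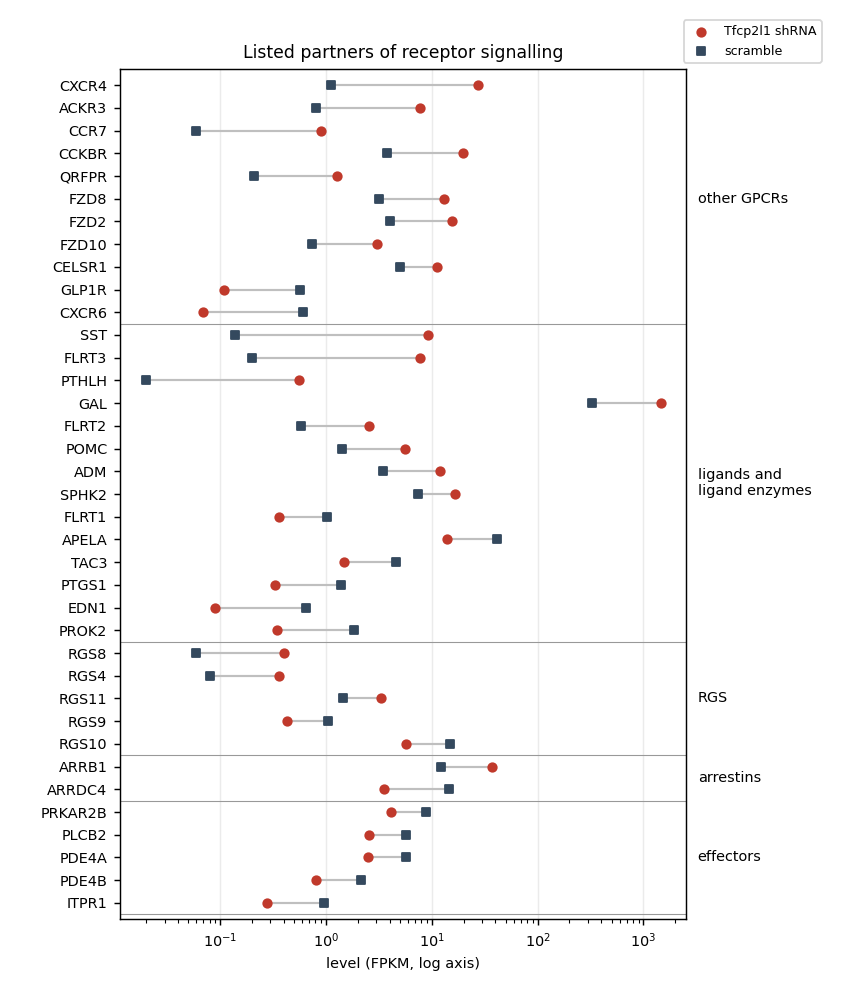
Levels in FPKM (log axis) of listed genes from 5 lists of receptor partners are shown in the knockdown (red circles) and scramble (dark squares) libraries, 1 library each. All 5 effector genes have the circle left of the square, and the ligands lie on both sides.

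Outside the name stems, 106 further receptor names had 11 listed genes, 9 higher and 2 lower, all named after their values were seen. CXCR4, also on the endoderm marker list above, had the highest log2 ratio of the 11 (4.48). It was at 27.3 FPKM in the knockdown and 1.13 FPKM in the scramble library, a ratio of 24.3 (interval 17.9 to 33.8). CCKBR, the gastrin receptor, was at 19.7 FPKM in the knockdown and 3.77 FPKM in the scramble library, a ratio of 5.24 (interval 4.48 to 6.16). Both were above every gene of the 41 in the knockdown. CCR7, FZD2, FZD8, FZD10, CELSR1 and QRFPR were also higher. ACKR3, a scavenger of the chemokine CXCL12, was at 7.81 FPKM in the knockdown and 0.81 FPKM in scramble, a ratio of 9.64 (interval 6.91 to 13.8). GLP1R, the receptor of an incretin hormone, was at 0.11 FPKM in the knockdown and 0.57 FPKM in scramble, 5.33-fold lower (interval 3.10 to 9.73), and CXCR6 was at 0.07 FPKM in the knockdown and 0.61 FPKM in scramble on 3 knockdown and 27 scramble reads, 8.72-fold lower (interval 2.68 to 44.9). The median log2 ratio of the 11 genes was 2.0, against 1.07 over all 41 and 1.01 over the whole table. These medians span both directions, so they depend largely on the share of higher genes in each set.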

How the data were processed

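Per the labels' protocols, Trizol was used to extract total RNA, which was read on the BGISEQ-500 platform. The submitters' processing notes name the build hg19 and Bowtie 0.12.2. How levels, tests and filters were computed, and whether strand was used, is not given in the sources used here. For 2005 genes the authors' deposited table holds the length in bases, both levels, the log2 ratio, the p-value and the false discovery rate. Its header names no unit. The deposited levels were read as FPKM, since they follow the inferred reads divided by length and library size. The smallest deposited level is 0.01 FPKM, the largest deposited false discovery rate 0.000990 and the smallest size of the authors' log2 ratio 1.

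The members and lists were chosen with earlier results of these data known. Members were found by name stem, and all are named but 1, which is not reported here by itself and is counted in the totals. Partners named by rule are those listed in the G protein and effector lists and the 8 ligand genes with the largest log2 ratios, of which GAL is not described; RGS and arrestin genes, further receptors and other ligands were named after their values were seen. Log2 ratios used a pseudocount of 0.1 FPKM, which understates changes of low genes.

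Reads were inferred in Python 3.11.15 with scipy 1.17.1. The deposited p-values of genes at 0.01 FPKM in the scramble library followed whole steps for 67 of 75 genes, which gave a depth ratio of 1.034 (scramble over knockdown). A search over whole read pairs then kept those that fitted both levels, with 5% slack, and the p-value of a doubled Audic-Claverie tail within 1e-05 on its natural log. The slack applied to each library by itself, with limits rounded outward to whole reads. A read ratio can therefore differ from the ratio of levels by more than rounding, as for VIPR2 (3.89 against 3.38). A pair was found for 1755 (91.1%) of the 1926 genes whose p-value exceeds 0, and 38 of the 41 receptor genes had exactly 1. These settings, and separate library sizes for the levels and the test, were chosen on this table after a first version, with a single depth ratio, fitted few genes. On a simulated table of 2005 genes 99.9% of the pairs found were those drawn; the simulation uses the same model and does not test whether the model is right. Read ratios were scaled by the depth ratio of the levels, 1.032. Counts and intervals cover counting error only. The number of genes tested was taken from the ratio of p-value to false discovery rate, which gave whole ranks for 18489. Receptor genes with inferred reads held 20 to 4144 reads over both libraries. Shared sequence was measured as 31-base words of the longest GENCODE 29 transcript found in transcripts of other genes, on either strand. Genes were matched to RefSeq by gene ID. Motifs were counted in the first listed window of each gene, a change from all windows made after matches were seen. Families and G protein classes were assigned from textbook knowledge after the values were seen. Other pseudocounts, low-value filters, library scaling, the authors' log2 ratio, a 99% interval and inferred reads were tried as alternatives.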

Additional observations from a re-analysis of the deposited data

How the results depend on the processing

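With 1 library per group there was no replicate to leave out. No paired analysis was possible because each group has 1 library and no test was made. With a pseudocount of 1 FPKM 20 of the 41 genes, and with upper quartile scaling 9, no longer reached 2-fold.

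The count of genes at least 2-fold higher (19) was 10 with upper quartile scaling and 11 at 5 FPKM or more, and the count at least 2-fold lower (7) was 16 without a filter on low values and 1 at 5 FPKM or more. The count at least 4-fold higher (7) was 2 with a pseudocount of 1 FPKM and 3 at 5 FPKM or more. The count at least 4-fold lower (0) was 1 with a pseudocount of 0.01 FPKM, 1 with the authors' log2 ratio, 4 with upper quartile scaling and 3 without a filter. The median log2 ratio (1.15) was 1.01 with a pseudocount of 1 FPKM, 1.27 with the authors' log2 ratio, 0.82 with upper quartile scaling, 1.29 without the 4 genes that are not receptors, and 0.90 as a mean. By inferred reads, an alternative chosen after seeing the data, 17 genes were 2-fold higher and 8 lower. Leaving out genes that share sequence, chosen likewise, gave 18 and 6. With 99% intervals, 21 of 27 genes lay beyond 2-fold. The shares of all listed genes at these other settings are not given. Genes with few reads, such as GPR1 and LGR5, have ratios that counting error leaves wide.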

Other observations

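The coding sequence of 12 of the 41 genes lies in a single exon in each coding transcript of GENCODE 29, as is common among receptors of this class. Of these, 7 were higher and 5 lower in the knockdown, where 54.1% of all listed genes were higher and 45.9% lower. Of 40 receptor genes placed on the RefSeq chromosomes, 3 (7.50%) had a listed gene as their next protein-coding neighbour, against 23.0% of all listed genes placed. GABBR2 and its neighbour TBC1D2 (7.71 FPKM in the knockdown, 2.16 FPKM in scramble) were both higher in the knockdown, LPAR3 and MCOLN2 (0.09 FPKM in the knockdown, 0.57 FPKM in scramble) were both lower, and S1PR3 was higher while NXNL2 (0.18 FPKM in the knockdown, 1.29 FPKM in scramble) was lower.

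The first RefSeq promoter window of the receptor genes had a median observed over expected CpG ratio of 0.706 over 26 genes, against 0.735 over 1378 listed genes and 0.580 over 27305 genes. The median was 0.663 over the 17 higher and 0.749 over the 9 lower genes. The share of genes with a ratio of at least 0.6 had the other order, 64.7% of the higher and 55.6% of the lower genes. No test was made of these differences.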
